A study of Mus musculus with 4 samples.

Results

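The immunoglobulin heavy-chain V span is the stretch of mouse chromosome 12 that carries the variable (V) segments of the antibody heavy chain, from Ighv5-1 to Ighv1-86 (chr12:113572929-116009954, mm10). Peaks were chosen by position alone, as those of the deposited MIXL1 peak list whose centre lies in this span, and 235 of the 9598 peaks did so (2.45%). Their number and density were the reason for the choice and are given as a description, with no test. MIXL1 is a transcription factor with a paired-type homeodomain, known for its part in mesoderm and endoderm formation. Its FLAG-tagged form was precipitated with the anti-FLAG M2 antibody from mouse epiblast stem cells (EpiSC), pluripotent cells in culture, that carried an inducible Mixl1 gene. The cells had spent 2 days as embryoid bodies under serum differentiation. The 2 FLAG libraries and the 2 input libraries all came from cells given 1 µg/mL doxycycline for 24 h. Before that, the lines were kept on a layer of irradiated fibroblasts, in bFGF at 10 ng/mL and activin A at 20 ng/mL. The labels give neither the mouse strain of the EpiSC lines nor how many lines were used, and cells without doxycycline or a mock precipitation were not analysed here. One peak list stands for all 4 libraries, so the values below come without replicate error, and how deeply each library was sequenced is unknown. The intervals given are 95% intervals for counting peaks or segments only.

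In developing B cells, one V, one D and one J segment are joined by V(D)J recombination to form the exon of the antibody heavy chain that binds antigen. The mouse V segments are numbered by family (Ighv1, Ighv2 and so on), and members of a family are close copies of each other. Many are pseudogenes that cannot give a working chain. The D, J and constant segments lie at lower coordinates, and V segments are read towards them, so the higher-coordinate side of a V segment holds its leader exon and promoter and the lower side its recombination signal. EpiSC and their embryoid bodies are not B cells. Families 1 and 8 fill the part of the span farthest from D and J, and families 2 and 5 alternate nearest to it.

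Sequence was at hand for a few places in the span, and 3 are shown here: 2 that lie under a peak and, for comparison, the near-identical copy of one of them, which does not. The first is the RefSeq promoter window of the long noncoding RNA gene Gm30948 (GRCm38.p6, chr12:115262401-115262700, plus strand), the only one of 5 promoter windows of the span that a peak overlapped. It lies entirely within the peak at chr12:115262126-115262931, of 806 bp, and 4.12 kb from the V segment Ighv8-7. Over all 32851 promoter windows of the table, 1.38% were overlapped by a peak. The other pair are the RefSeq hairpins of Mir7094-2 and Mir7094-1, both on the minus strand, 11 and 35 bp beyond the higher-coordinate ends of Ighv1-5 and Ighv1-2. All are written 5′ to 3′. Capitals mark, in the promoter window, matches to the homeodomain core TAAT and to the recombination heptamer CACAGTG on either strand, and in the hairpins the base that differs.
Gm30948 promoter window: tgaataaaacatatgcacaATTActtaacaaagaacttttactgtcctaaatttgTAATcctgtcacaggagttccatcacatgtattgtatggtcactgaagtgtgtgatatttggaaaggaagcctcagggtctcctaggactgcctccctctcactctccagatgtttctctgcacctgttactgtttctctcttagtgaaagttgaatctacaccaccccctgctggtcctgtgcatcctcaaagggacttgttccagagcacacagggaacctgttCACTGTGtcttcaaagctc
Mir7094-2 hairpin: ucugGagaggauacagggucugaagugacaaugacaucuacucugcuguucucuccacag
Mir7094-1 hairpin: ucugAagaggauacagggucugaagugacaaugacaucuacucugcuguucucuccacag

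The Gm30948 window held 2 matches to TAAT, at positions 20 to 23 and 56 to 59 from its 5′ end, and 1 match to the heptamer, at 282 to 288. A match to TAAT stands in 58.0% of all promoter windows and one to CACAGTG in 6.81%. Sites for paired homeodomains, searched as TAAT and then ATTA with 3 or with 2 bases between them, had no match in the window and stand in 0.487% and 0.390% of promoter windows. The octamer ATGCAAAT of immunoglobulin promoters, in 1.74% of them, had none either. Both strands were searched, the matches are descriptions and not sites, and every match to a paired site also holds the short one. The Mir7094 hairpins are 60 bases long and differ at 1 of them (A5G from Mir7094-1 to Mir7094-2, counted from the 5′ end). The Mir7094-2 hairpin (chr12:114513635-114513694) lay inside the peak at chr12:114513384-114514058, which also covered 240 of the 294 bp of Ighv1-5. No peak overlapped the Mir7094-1 hairpin (chr12:114469407-114469466) beside the pseudogene Ighv1-2, and the nearest was 4.37 kb away. The hairpins, alike at all but 1 base, thus differed in whether the list places a peak over them. The sources used here do not say how reads that fit several copies were placed.

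The peaks were dense but unevenly laid out. The span held 96.4 peaks per Mb (84.5 to 110), against 11.4 (10.8 to 12.03) on the rest of chromosome 12 and 3.41 on the other autosomes. On the rest of chromosome 12, 19 windows of 1 Mb held 20 or more peaks. Without them its density was 8.14 per Mb, and the ratio of the span to the rest was 11.8 in place of 8.46. The neighbouring stretches were sparser, with 13 peaks in the 1 Mb below the span and 7 in the 1 Mb above it. The member nearest to the lower edge was the peak at chr12:113597191-113598074, 24.7 kb inside, and the last peak outside it, at chr12:113475561-113476070 in the D segments, was 97.1 kb away. At the upper edge the last member, at chr12:115861740-115862387, was 148 kb inside and the first peak outside, at chr12:116011250-116011781, only 1.56 kb beyond Ighv1-86.

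Density was higher in each of 3 equal parts of the span than in the one before it, going away from D and J. The part next to D and J held 42 peaks (51.7 per Mb, 37.3 to 69.9), the middle part 79 (97.2 per Mb, 77.0 to 121) and the distal part 114 (140 per Mb, 116 to 169). The numbers of V segments did not follow, with 68, 71 and 45 in the same order. Over 24 full windows of 100 kb, the number of peaks and the number of V segments had a Spearman correlation of -0.10 and a Pearson correlation of 0.0086. The windows share libraries and neighbouring sequence, so no test was made. The 2 densest windows lay in the distal part, where families 1 and 8 alternate, and the next in the middle part. The window from 115772929 to 115872928, from Ighv1-73 to Ighv1-78, held 34 peaks and 9 V segments. The window from 115572929 to 115672928, from Ighv1-66 to Ighv8-12, held 31 peaks and 5 V segments. The next, from 114772929 to 114872928 and from Ighv1-24 to Ighv1-34, held 22 peaks and 11 V segments of family 1. The median window held 7 peaks, and 4 of the 25 windows held none.

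**Figure D1:**
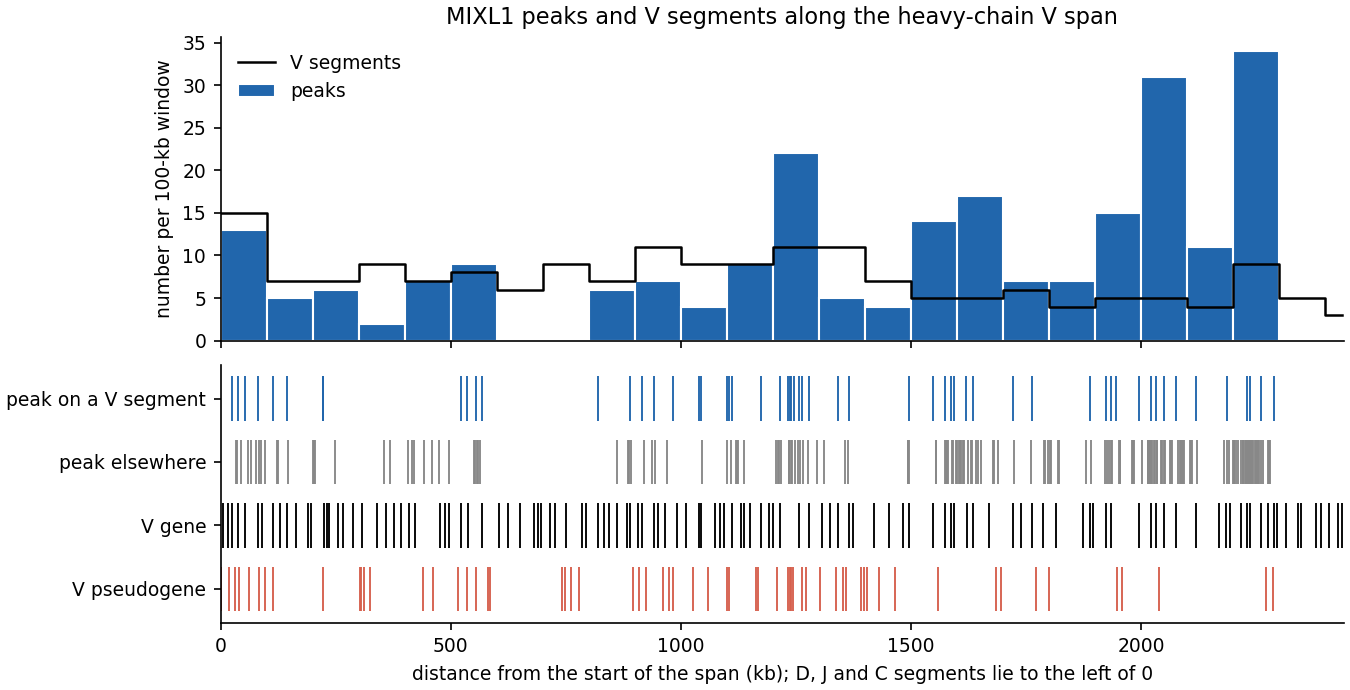
Upper panel: number of peaks (bars) and of V segments (line) in 25 windows of 100 kb along the span, the last of which is 37.0 kb long. Lower panel: position of every peak and V segment, in kb from the start of the span; the stretches without a peak, one of 250 kb and one of 148 kb at the distal end, both hold V segments.

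The stretches without a peak were not empty of V segments. The longest ran over 250 kb (chr12:114141152-114391639) from Ighv7-3 to Ighv12-3. It held 17 V segments of 10 families, among them 6 of the 8 segments of family 3 and both of family 13. The next was the distal end, 148 kb from 115862388 to the end of the span, with 9 V genes from Ighv1-78 to Ighv1-86, all of family 1. Family 1 was thus without a peak over its last 9 genes, the first of which, Ighv1-78, still lies in the densest 100-kb window of the span. The third was 128 kb long (chr12:114937240-115064780), from Ighv1-43 to Ighv1-49, with 9 V segments of which 5 were pseudogenes.

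Peak centres fell inside V segments far more often than the length of these segments would give. The annotation lists 184 V segments in the span, 121 genes and 63 pseudogenes, with a median length of 294 bp. Together they cover 59.3 kb, or 2.43% of the span, and 36 of the 235 peak centres (15.3%, 11.3 to 20.5) lay inside one. The density inside V segments was 607 centres per Mb (425 to 840), 6.29 times that of the whole span. Outside them it was 103 per Mb up to 1 kb from a segment (72.3 to 142) and 86.6 from 1 to 5 kb (70.4 to 105). It was 65.7 from 5 to 10 kb (47.2 to 89.2) and 87.8 beyond 10 kb (55.0 to 133). The value up to 1 kb is an average over an uneven zone. From 250 to 500 bp from a segment's centre, 8 peak centres lay on the higher-coordinate side and 4 on the lower. From 500 to 750 bp there were 2 on each side, and from 750 to 1000 bp there were 1 on the higher side and 5 on the lower. The whole zone up to 1 kb from a segment held 17 centres on the higher side and 20 on the lower. The position of a peak within the span was not used to choose it, but the peaks of 1 locus and 1 list are not replicates, so these values carry counting intervals and no test.

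**Figure D2:**
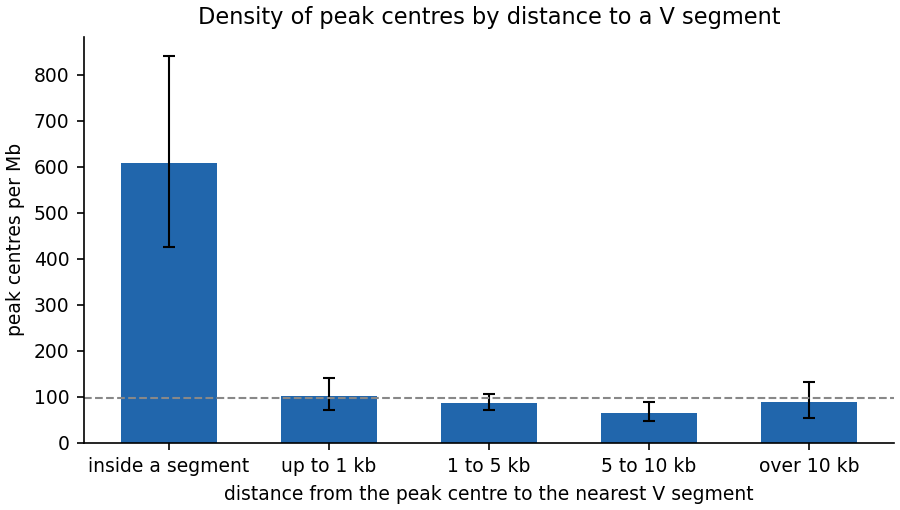
Peak centres per Mb in 5 zones of distance to the nearest V segment; bars are densities, error bars 95% Poisson intervals and the dashed line the density of the whole span (96.4 per Mb). The bar inside V segments, at 607 per Mb, stands above the other zones, which lie between 65.7 and 103.

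Counted from the side of the segments, 57 of 184 V segments (31.0%, 24.7 to 38.0) were overlapped by a peak by at least 1 bp, each by exactly 1. By the same rule, 8.01% of all genes were overlapped by a peak. Of 7317 genes elsewhere that were no longer than the longest V segment (582 bp) the share was 1.11%, and of 362 such genes on the rest of chromosome 12 it was 1.66%. These background genes lie where peaks are sparser, so the share is not adjusted for the density of the span. Of the 57 segments, 37 lay wholly within their peak. The 127 V segments without a peak were a median of 8.49 kb from the nearest one (quartiles 3.86 and 29.0 kb). The count fell to 36 where the peak centre had to lie inside the segment, against 0.164% of the short genes elsewhere and 0.552% of those on the rest of chromosome 12 by that rule.

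Peak centres gathered near the centres of V segments, and within 250 bp of them lay more often on the higher-coordinate side. Summed over all 184 segments, 30 peak centres lay from 0 to 250 bp from the segment's centre on the higher-coordinate side. On the lower side 13 lay within the same distance. At a median segment length of 294 bp, the nearer part of that distance lies inside the segment itself. Outside the segments, up to 1 kb from the nearest one, 17 centres lay on the higher side and 20 on the lower. Farther out, from 1 to 3 kb on either side, a bin of 250 bp held a mean of 4.94 centres (2 to 9). Among the 57 overlapping pairs the peak centre lay on the higher side in 39 and on the lower side in 18, with a median offset of 50 bp (quartiles -55.5 and 139). In 36 of the 57 the peak centre lay within 150 bp of the segment's centre. In family 1 it was on the higher side in 26 of 36 pairs, with a median offset of 83.3 bp, and in family 8 in 4 of 8, with a median of -2.25 bp. The difference between these families was not tested. Annotated segments were 203 to 582 bp long, so the centre is not the same place in each, and offsets varied with length. The family 1 pairs of 391 bp or more had offsets of -298.5, -255.5, -115.5, -109.5, -90, -57, 31, 109 and 255 bp.

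**Figure D3:**
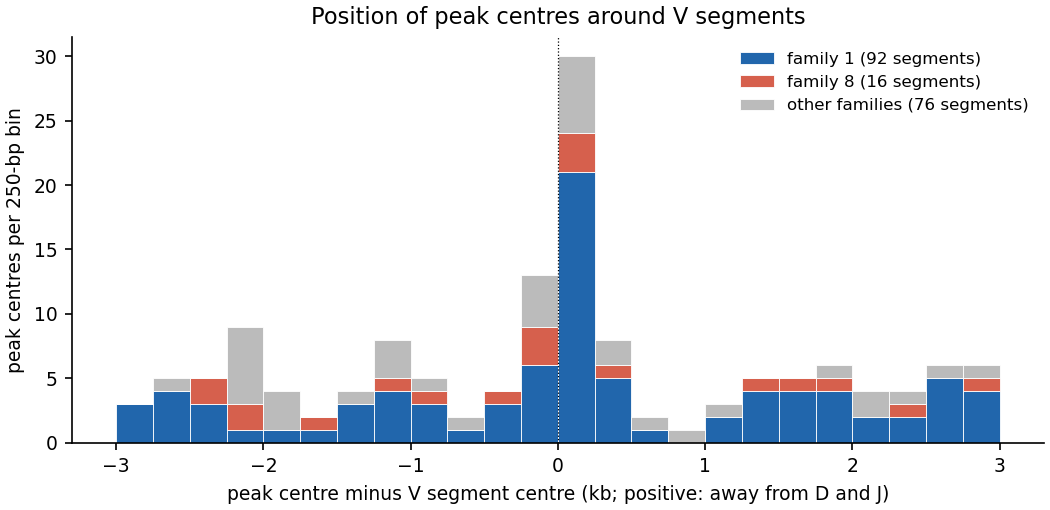
Number of peak centres per 250-bp bin by distance from the centre of a V segment, stacked for family 1, family 8 and all other families; positive distances point away from D and J. The bin from 0 to 250 bp holds 30 centres, 21 of them at family 1, and the bin on its other side holds 13.

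The families differed in how many of their segments carried a peak. Families 1, 2 and 8 together had 49 of 119 segments with a peak, and all other V segments 8 of 65. This grouping was made after the values were seen. It puts the small families 9 and 12, with shares of 50% and 66.7%, among the others. Family 1, the largest, had 36 of 92 (39.1%, 29.8 to 49.3). Family 8 had 8 of 16 (50%, 28.0 to 72.0) and family 2 5 of 11 (45.5%, 21.3 to 72.0). Family 5 alternates with family 2 next to the D segments and had 3 of 21 (14.3%, 4.98 to 34.6). Its interval overlaps that of family 2. Family 9 had 2 of 4, family 12 had 2 of 3 and family 6 had 1 of 7. The other 9 families, with 29 segments, had none. The largest of these was family 3 with 0 of 8 (upper limit 32.4%). The others were families 4, 7, 10, 11, 13, 14, 15 and 16, with 1 to 4 segments each.

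Families differ in where their segments lie, and these shares are not adjusted for position. Families 1 and 8 alternate from Ighv8-3 to Ighv8-16 (855 kb), and there 16 of 32 segments of family 1 (50%, 33.6 to 66.4) and 7 of 14 of family 8 (50%, 26.8 to 73.2) carried a peak. Leaving out the 2 longest stretches without a peak, which hold 26 segments, the counts were 36 of 82 for family 1, 8 of 15 for family 8, 5 of 11 for family 2 and 3 of 20 for family 5. Since those stretches hold no peak by definition, this can only raise a share and does not adjust for position.

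**Figure D4:**
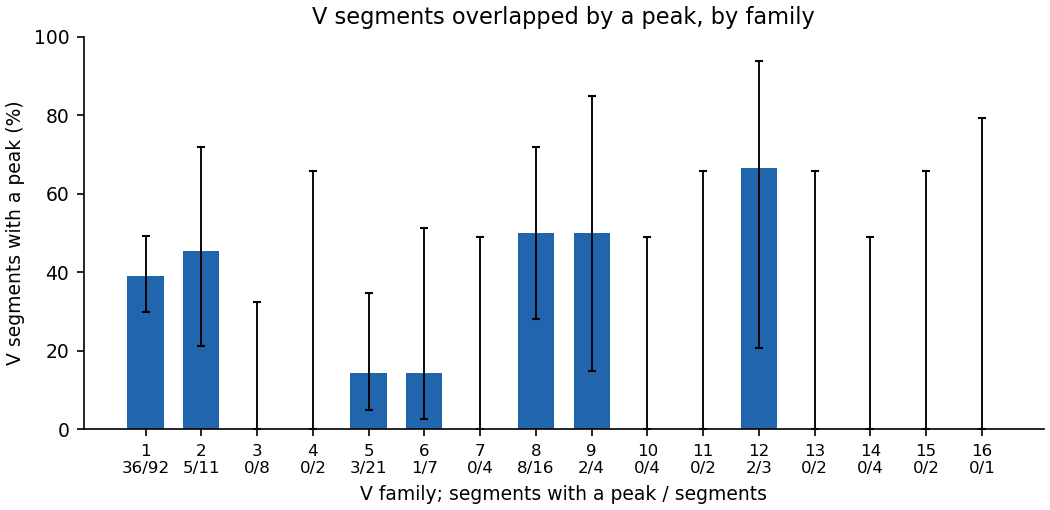
Share of V segments overlapped by a peak in each of the 16 numbered families; error bars are 95% Wilson intervals, and the counts stand under each bar. Families 1, 2 and 8 lie between 39.1% and 50%, families 5 and 6 are at 14.3%, and 9 small families are at 0. Families 9 and 12, with 4 and 3 segments, are at 50% and 66.7%.

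V genes carried a peak more often than V pseudogenes. Of 121 genes 45 did (37.2%, 29.1 to 46.1), and of 63 pseudogenes 12 did (19.0%, 11.2 to 30.4), a difference of 18.1 percentage points (4.20 to 29.96). The direction was the same within the 4 families with the most segments: 28 of 60 genes and 8 of 32 pseudogenes in family 1, 7 of 10 and 1 of 6 in family 8, 5 of 9 and 0 of 2 in family 2, and 2 of 10 and 1 of 11 in family 5. In the small family 12 it was the opposite, with both pseudogenes, Ighv12-1 and Ighv12-2, and not the gene Ighv12-3 carrying a peak. Outside the 2 longest stretches without a peak it was 45 of 101 genes (44.6%) and 12 of 57 pseudogenes (21.1%). Leaving these stretches out removes only segments without a peak, so it can only raise a share and is no separate support. By the rule that the peak centre lies inside the segment, the difference was 8.03 points, given here without an interval. Segments of a family are copies of each other and not independent, so the interval, computed as if they were, is too narrow.

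Some neighbouring V segments carried peaks one after another. The longest such run was Ighv1-26 to Ighv1-32 (chr12:114788372-114835516), 7 segments in 47.1 kb, of which 5 are pseudogenes and Ighv1-26 and Ighv1-31 are genes. Its peaks were 498 to 1005 bp wide, and all 7 centres lay on the higher-coordinate side, by 9 to 314 bp. At Ighv1-28 (chr12:114809421-114809714) the peak ran from 114809273 to 114810132, and at Ighv1-29 (chr12:114812321-114812605) from 114812178 to 114813032, with offsets of 135 and 142 bp. The next longest run was Ighv1-52 to Ighv1-55, 5 segments in 63.0 kb that include Ighv8-6. These runs were singled out after their values were seen.

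Widths of peaks varied along the span. The 235 members had a median width of 596 bp (quartiles 389 and 868.5, range 241 to 2966), against 555 bp on the rest of chromosome 12 and 484 bp for all 9363 other peaks. Peaks of 1 kb or more made up 18.7% of the members (14.3 to 24.2), 17.8% on the rest of chromosome 12 and 12.5% of all other peaks. The members were thus wider than the list as a whole, and near the rest of their chromosome. Members with their centre inside a V segment had a median width of 719 bp, and those 1 to 5 kb away 594 bp.

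The widest member, of 2966 bp (chr12:115602616-115605581), covered all of the V gene Ighv1-67. The peak of 2604 bp at chr12:115191849-115194452 covered Ighv1-54. Family 8 had wide peaks too, with 1506 bp over Ighv8-12, 1182 bp over Ighv8-14, 1067 bp over Ighv8-6 and 1026 bp over Ighv8-8. In family 2 the widest, of 1168 bp, reached only 75 bp into Ighv2-4, while peaks of 970 and 889 bp covered Ighv2-3 and Ighv2-6 wholly. The other 3 of the 5 widest members lay off V segments, with 2855 bp at 4.86 kb from Ighv1-68, 2375 bp at 8.25 kb from Ighv2-9-1 and 2061 bp at 14.1 kb from Ighv8-12. Of the 5 narrowest, 241 to 249 bp, only the one at Ighv5-13 touched a V segment. The list gives no height or score, so width cannot be read as strength.

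Most members lay between V segments, and they lay close together. Of the 235 peaks, 178 overlapped no V segment. The median gap between neighbouring members was 2.27 kb (quartiles 0.904 and 8.07), while neighbouring V segments were a median of 11.5 kb apart (6.78 and 17.1). On the rest of chromosome 12 the median gap between peaks was 30.2 kb and on the other chromosomes 102 kb. A neighbour closer than 1 kb stood at 66 of the 234 gaps (28.2%), and the shortest gap was 250 bp, against 242 bp in the whole list. Another peak within 10 kb was found for 92.3% of members (88.2 to 95.1), 47.1% of the peaks on the rest of chromosome 12 and 28.8% of other peaks on assembled chromosomes. A higher density gives closer neighbours by itself, and these shares are not adjusted for it.

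Linking peaks at gaps of up to 10 kb gave 50 groups, 18 of them single peaks, and 13 groups of 5 or more held 165 of the 235 peaks. The largest held 39 peaks in 110 kb (chr12:115752336-115862387), from Ighv1-72 to Ighv1-77, and was followed by the peak-free distal end. The next largest held 30 peaks in 78.9 kb (chr12:115586514-115665432), and another held 25 in 80.0 kb (chr12:115145378-115225345). Of the 183 intervals between neighbouring V segments, 86 held at least 1 peak centre and 97 held none, with median lengths of 12.5 and 9.82 kb. The 25.2 kb between Ighv8-14 and Ighv1-75 held 13 centres, the 43.6 kb between Ighv8-12 and Ighv1-70 held 12, and the 27.6 kb between Ighv8-6 and Ighv1-54 held 9. All 3 run from a segment of family 8 to one of family 1, but the 15 intervals of that kind held 0 to 13 centres with a median of 1, and 4 held none.

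V segments of the other antigen receptor loci had almost no peaks. The light-chain span Igkv, with 162 V segments on chromosome 6, held 4 peaks in 3.15 Mb (1.27 per Mb, 0.346 to 3.25). The T-cell receptor spans Trav and Trbv held 1 each in 1.55 and 0.667 Mb, and Iglv, Trdv and Trgv held none, where the small spans allow up to 21.0, 13.8 and 22.7 per Mb. Together these 6 loci held 6 peaks in 5.88 Mb (1.02 per Mb, 0.375 to 2.22), below the 3.41 per Mb of the other autosomes. Of 363 V segments outside the heavy-chain span 1 was overlapped by a peak (0.275%), the gene Trav3-3 on chromosome 14.

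The rest of the heavy-chain locus, on the D and J side, was sparser than the V span. From Igha to the first V segment, 317 kb, there were 8 peaks (25.3 per Mb, 10.9 to 49.8). No peak overlapped the 4 J segments. Of 20 D segments 2 were overlapped, Ighd5-2 and Ighd2-4, both named after their values were seen. Of 8 constant regions 1 was, Ighg2b. The 5 peaks nearest to the V span lay together among the D segments, from 113469143 to 113476070. Of the 33 genes listed for the locus and its neighbours, 4 were overlapped by a peak, namely Ighg2b, Zfp386, Wdr60 and Ptprn2. That is 12.1% beside 19.3% of all genes on chromosome 12 outside the span. The listed genes include J segments of 48 to 54 bp and D segments of 10 to 23 bp, and these shares are not matched for gene length. Ptprn2, which encodes a receptor-type phosphatase-like protein and spans 792 kb, had 11 peaks, and Ighg2b, Zfp386 and Wdr60 had 1 each. Adam6a and Adam6b are sperm protein genes, the first between the V and D segments and the second between Ighd1-1 and Ighd3-1. Adam6a, Adam6b and Ighm, the constant region of the first antibody class made, had their nearest peaks at 50.8, 13.5 and 46.4 kb.

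**Figure D5:**
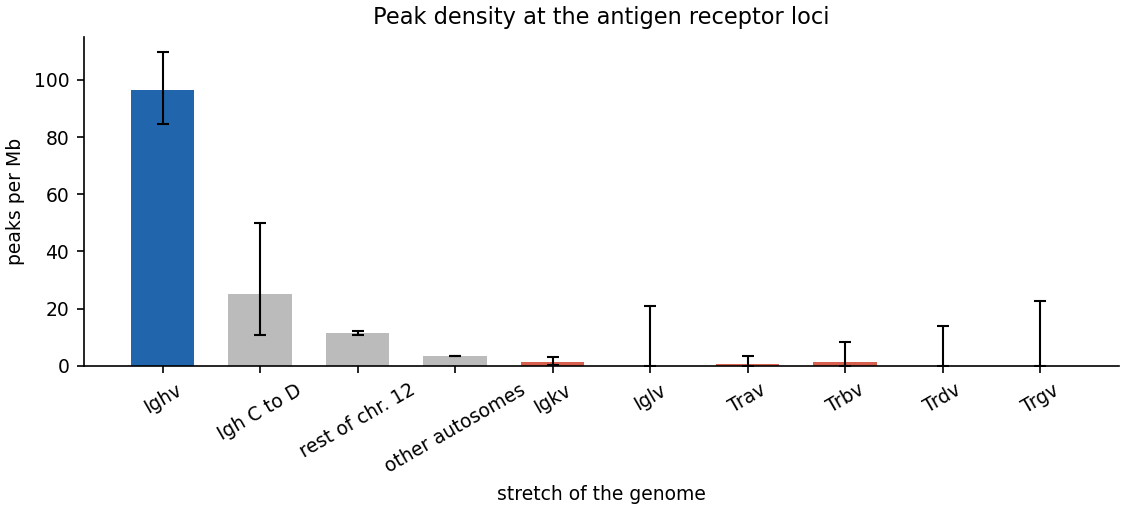
Peaks per Mb in the heavy-chain V span, the C to D part of the same locus, the rest of chromosome 12, the other autosomes and 6 other antigen receptor V spans; error bars are 95% Poisson intervals. The heavy-chain V span is at 96.4 per Mb and each of the other V spans at or under 1.499.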

How the data were processed

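The members and the lists were chosen with earlier results of these data known. Tools named in the submitters' processing notes are CASAVA 1.8.2, Bowtie2, SAMtools and, for peaks, MACS2, with mm10 as the build. The authors deposited 1 list of peak positions for the whole series, with no score, signal or p-value. The sources used here do not give its threshold, filters, use of the input libraries, pooling of replicates or treatment of reads with several matches. Genes, V segments and their types came from the NCBI RefSeq table of GRCm38.p6 (the same assembly as mm10), which gives spans without strand or exons. The planned motif comparison over peaks needs a genome and was left out; 5 motifs were searched in 1 promoter window. Positions are printed 1-based.

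A V segment carried a peak where they overlapped by at least 1 bp. Families are the number after Ighv. Densities of chromosomes run from 3 Mb to the last gene end. Intervals are 95% Wilson (shares) or exact Poisson (densities); that of the difference of shares combines both Wilson intervals. With 1 list, no test was made. Named segments are those under the widest peaks, at the ends of the span, of the longest gaps and densest windows, and of every family, with others marked as chosen later. Overlap counting was tested on simulated data with 50 planted segments in 20 runs. Scripts ran under Python 3.11.15 with pandas 2.3.3, numpy 2.4.6, matplotlib 3.10.9 and, for intervals, scipy 1.17.1.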

Additional observations from a re-analysis of the deposited data

How the results depend on the processing

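No paired analysis was possible because the list has no values per library, and for the same reason no replicate could be left out. With the wider 50% of all peaks the span held 149 peaks in place of 235, and 50 V segments carried one in place of 57. Where the peak centre had to lie inside the segment, 36 segments and 36 peaks were counted, because peaks that only touch a segment drop out. The density ratio to the rest of chromosome 12 was 11.8 without 1-Mb windows of 20 or more peaks. Another peak lay within 5 kb of 86.8% and within 20 kb of 97.9% of members. Of 250-kb windows 0% held no peak, against 16% of 100-kb windows, since the longer windows are as long as the longest stretch without a peak. The difference between V genes and pseudogenes stayed positive under 7 alternatives chosen after the data were seen, from 8.03 to 21.7 percentage points. These differences carry no intervals here, so whether the smallest exceeds counting error was not tested. Classing pseudogenes by name and the motif window were not run, as names do not mark pseudogenes and no genome was used.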

Other observations

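Genes other than V segments inside the span also lay under peaks. Of 29 such genes, 11 were overlapped: 8 of 21 pseudogenes not annotated as V segments, 2 of 5 long noncoding RNA genes (Gm30948 and Gm40899) and 1 of 3 microRNA genes (Mir7094-2). The peak at Mir7094-2 is the one counted above for Ighv1-5. Genes on chromosome 12 outside the span were overlapped in 19.3% of cases, but these are mostly longer and lie where peaks are sparser. The pseudogenes Gm34465 and Gm9251 had 2 peaks each, and 1 peak of 2855 bp covered all of Gm5660 and part of Gm9245. Gm34465 (chr12:114808833-114811764) contains the V segment Ighv1-28, and 1 of its peaks is the one over that segment. The ribosomal protein pseudogenes Rpl26-ps3 and Rpl7a-ps2 and the olfactory receptor pseudogene Olfr241-ps1 had none, with the nearest peaks at 4.25, 0.749 and 71.8 kb.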
